A study of Rattus norvegicus with 10 samples.

Results

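The phenylephrine response was compared between cardiomyocytes and fibroblasts from newborn rat hearts, as the log2 response of cardiomyocytes minus the log2 response of fibroblasts. All 10 of the 10 libraries of the study entered this comparison. Cardiomyocytes are the contractile cells of the heart and cardiac fibroblasts the connective tissue cells that lay down its matrix. Both came from the ventricles of rats aged 1 to 3 days, by enzymatic digestion and a Percoll density gradient, and 24 h after plating their medium was exchanged for serum-free medium alone or for the same medium with 10 µM phenylephrine.

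There were 3 libraries of unpassaged cardiomyocytes in serum-free medium, 3 of unpassaged cardiomyocytes with phenylephrine, 2 of passage 2 fibroblasts in serum-free medium and 2 of passage 2 fibroblasts with phenylephrine. Libraries are named by cell type (C or F), medium (SFM or PE) and replicate number, so that F-PE-1 is replicate 1 of the fibroblasts with phenylephrine. Levels are given library by library, serum-free medium first and phenylephrine second. In brackets, a log2 difference ± its standard error, worked back from the test statistic, is followed by its edgeR adjusted p. Lists of lost calls leave out a threshold of log2 1 and a replicate block, for which the genes are given at the end. Cardiomyocytes were plated by number and fibroblasts uncounted, so cell type, passage and plating density cannot be told apart. The hours spent in phenylephrine are not in the labels, nor is the origin of the replicates (cultures, litters or dishes), so p-values measure the spread between these libraries, which may be technical.

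Phenylephrine is an agonist of alpha1-adrenergic receptors, which couple to Gq, phospholipase C, calcium release and protein kinase C, and in cultured cardiomyocytes it is a standard trigger of hypertrophic growth. The same pathway reaches MEF2 factors through their class II deacetylases and the ERK cascade with its Sprouty and Dusp brakes. Fibroblasts answer many agonists of G protein-coupled receptors by changing matrix, growth factor and cyclic AMP-inducible genes.

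Library totals lay between 18048944 and 22794744 counts, and a floor of 3 counts between 0.128 and 0.166 CPM (counts scaled to a common library size), counting error only. Libraries C-SFM-2 and C-PE-1 stood apart: the chi-square of their counts over genes, divided by its degrees of freedom (1 for counting error alone), was 18.3 to 22.6 against their group mates. It was 4.2 and 2.99 between those mates, 14.7 for the serum-free fibroblast pair and 2.42 for the treated pair. The 10 cardiomyocyte markers summed to 41244 to 43254 CPM in serum-free and 44873 to 51325 CPM in treated cardiomyocytes, and to 599 to 615 and 548 to 559 CPM in fibroblasts, without overlap between media in either. The 14 fibroblast markers summed to 12428 to 19127 and 15341 to 22991 CPM in cardiomyocyte libraries and to 61305 to 69870 and 71387 to 73951 CPM in fibroblast libraries. The cardiomyocyte cultures thus held fibroblast transcripts too, in higher amounts in C-SFM-2 (19127 CPM) and C-PE-1 (22991 CPM) than in the other 4 (12428 to 15745 CPM), and in these bulk samples fewer cells of a type and less RNA per cell cannot be told apart.

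The response differed between the cell types for 451 of 13869 genes tested (3.25%), by edgeR's quasi-likelihood test at an adjusted p (Benjamini-Hochberg) below 0.05, the rule for every call here. Cardiomyocytes had the higher response for 226 genes (1.63%) and the lower for 225 (1.62%), and the difference reached 2-fold for 157. Of the 451, 31 were called in both responses in opposite directions, 92 in the cardiomyocyte response alone, 229 in the fibroblast response alone, 7 in both in the same direction and 92 in neither. A gene called in 1 response alone is one whose other response did not pass the test, whatever its fitted value. A call in 1 response and not in the other does not itself show a difference; here the difference was the quantity tested. Choice by a large difference favours opposite fitted signs, so the counts of signs that follow only describe the called genes. The fitted signs of the responses were opposite for 394 of the 451, for 91 of the 92 called in cardiomyocytes alone, for 180 of the 229 called in fibroblasts alone and for all 92 called in neither. These last numbered 13 without F-PE-1, 14 without F-PE-2, 24 without F-SFM-1, 44 without C-PE-2, 45 without C-SFM-3, 49 without C-SFM-1, 141 without C-PE-1 and 172 without C-SFM-2.

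With scaling by library size alone, chosen after seeing the data, 541 genes were called, 381 of them among the 451. The split was 161 higher and 380 lower, and the median over all genes moved from 0.004 to -0.09. Without both libraries that stand apart, also chosen after seeing the data, 2657 of 13786 genes tested were called, 448 of them among the 451. With 1 library left out, the count moved by over 1.5 times in 9 of 10 cases: 1290 without C-SFM-2, 823 without C-PE-1, 227 without C-PE-3, 214 without C-SFM-1, 213 without C-SFM-3, 185 without C-PE-2, 142 without F-SFM-1, 72 without F-PE-2 and 71 without F-PE-1. Of the 71 and 72 genes of the last pair, 70 and 72 were among the 451. In the remaining case, without F-SFM-2, the count stayed within 1.5 times, but part of the called genes were not among the 451. At the threshold, Cyb561 lay just inside (log2 -1.48, adjusted p = 0.0497) and Myh14 just outside (log2 0.64, adjusted p = 0.0504).

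**Figure D1:**
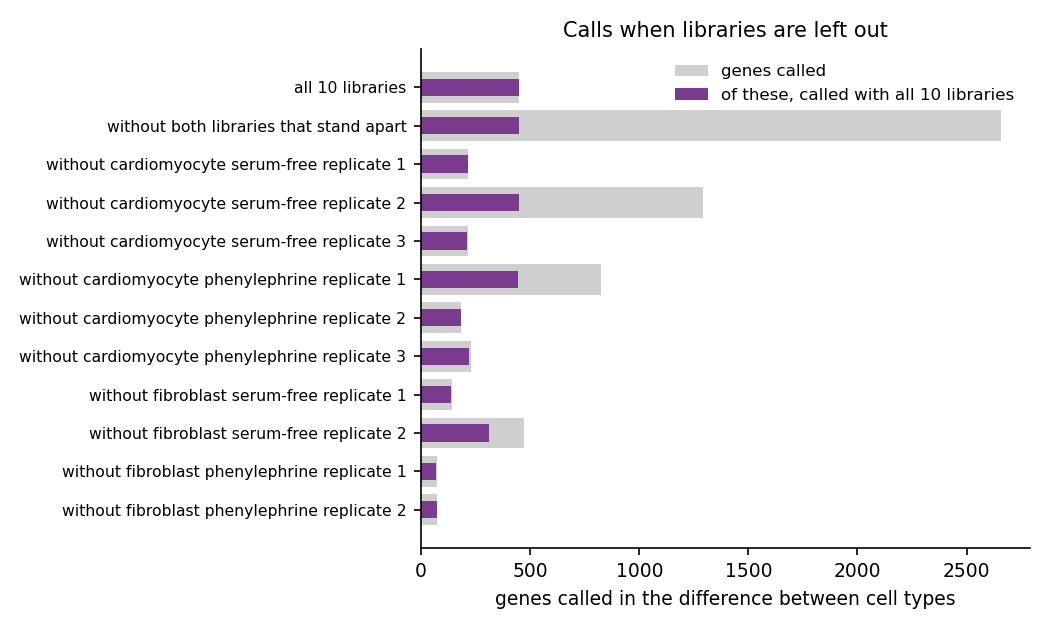
Number of genes called in the difference between cell types (grey bars, edgeR) with all 10 libraries and with libraries left out; purple bars give how many of these are among the 451 called with all libraries. The count ranged from 71 without fibroblast phenylephrine replicate 1 to 2657 without both libraries that stand apart.

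Over all genes tested the fitted responses of the cell types were hardly correlated, while their called genes overlapped more than the shares of all genes. Over the 13869 genes Pearson's r of the fitted log2 responses was 0.01 and Spearman's rho 0.02; these are across genes, which are not independent replicates and share their libraries and depth. Cardiomyocytes had 503 genes called (3.63%), 248 up (1.79%) and 255 down (1.84%), and fibroblasts 531 (3.83%), 286 up (2.06%) and 245 down (1.77%). Of these, 62 were called in both. They were 12.3% of the cardiomyocyte calls, against 3.83% of all genes called in fibroblasts. They were 11.7% of the fibroblast calls, against 3.63% of all genes called in cardiomyocytes. Of the 62, 31 had the same sign (29 up, 2 down) and 31 opposite signs. Among the 503 cardiomyocyte genes, 46.9% had the same fitted sign in fibroblasts, and among the 531 fibroblast genes 51.0% had it in cardiomyocytes. The cardiomyocyte count was 32 without C-PE-2, 43 without C-SFM-1, 48 without C-SFM-3, 51 without C-PE-3, 166 without F-PE-1 or F-PE-2, 1084 without C-PE-1 and 2371 without C-SFM-2. The fibroblast count was 112 without F-PE-1, 129 without F-PE-2, 162 without F-SFM-1, 801 without C-PE-1 and 919 without C-SFM-2.

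**Figure D2:**
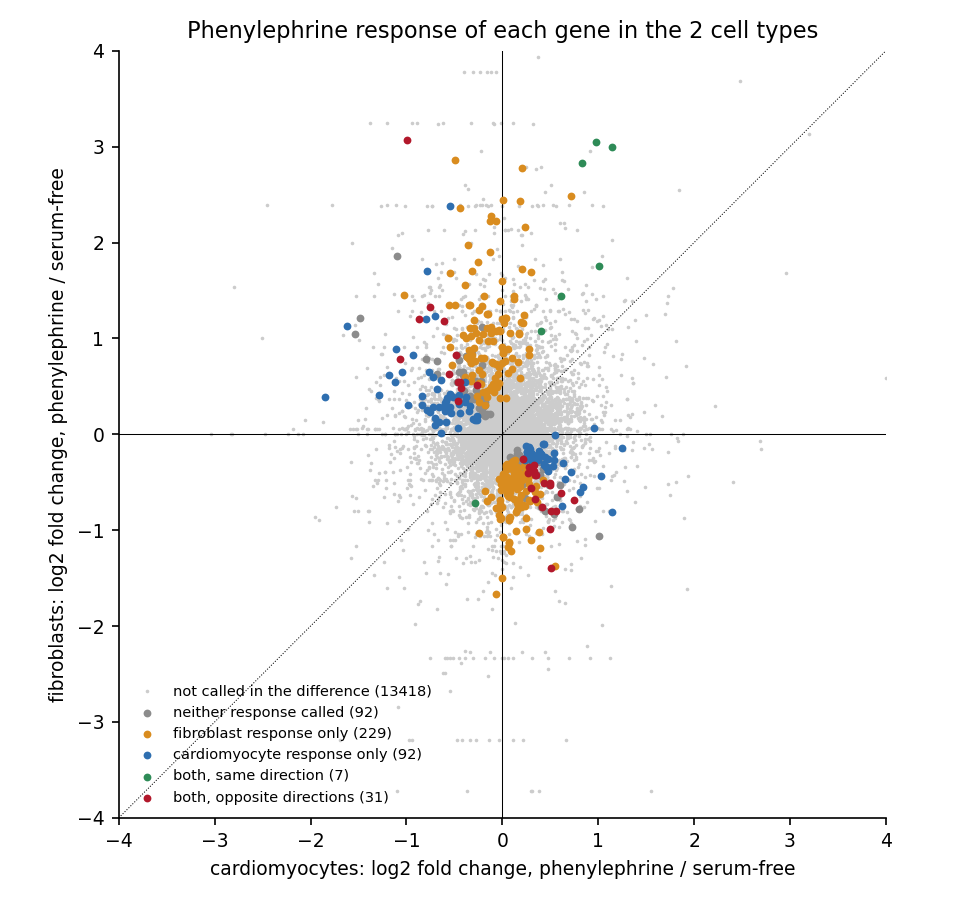
Fitted log2 fold change with phenylephrine in cardiomyocytes (x axis) and in fibroblasts (y axis), 1 point per gene, with genes called in the difference coloured by which responses were called; the dotted line marks equal responses, and 14 genes beyond 4 on either axis are not drawn. Coloured genes lie along the axes and in the quadrants of opposite sign, with 31 genes called in opposite directions and 7 in the same direction. Choice by a large difference favours these positions.

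The promoters of 4 of the genes with opposite responses are shown because they are the stretches where motifs of factors named with this pathway were counted. They run from 250 bases before to 50 bases after the start site in RefSeq (build GRCr8), 5′ to 3′ on the gene's strand, and capitals mark a motif match on either strand. Ablim1 holds GGAATG, the core bound by TEAD factors, and Bst2 holds AAAGGTCA, the site bound by NR4A receptors, while Dact2 and Spry4 hold none of the 6 motifs searched.
Dact2 (chr1:63863049-63863348, minus strand): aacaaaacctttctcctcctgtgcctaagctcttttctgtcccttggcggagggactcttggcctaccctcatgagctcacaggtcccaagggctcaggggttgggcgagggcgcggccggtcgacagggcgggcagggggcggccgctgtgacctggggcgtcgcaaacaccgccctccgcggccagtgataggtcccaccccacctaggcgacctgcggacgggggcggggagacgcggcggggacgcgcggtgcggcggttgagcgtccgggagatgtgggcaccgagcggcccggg
Spry4 (chr18:30702497-30702796, minus strand): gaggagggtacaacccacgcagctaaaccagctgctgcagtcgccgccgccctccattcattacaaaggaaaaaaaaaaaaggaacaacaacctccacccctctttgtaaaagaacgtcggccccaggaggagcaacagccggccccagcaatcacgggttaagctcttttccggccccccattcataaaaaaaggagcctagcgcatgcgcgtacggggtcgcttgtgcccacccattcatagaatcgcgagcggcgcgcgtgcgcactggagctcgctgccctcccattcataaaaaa
Ablim1 (chr1:266177484-266177783, minus strand): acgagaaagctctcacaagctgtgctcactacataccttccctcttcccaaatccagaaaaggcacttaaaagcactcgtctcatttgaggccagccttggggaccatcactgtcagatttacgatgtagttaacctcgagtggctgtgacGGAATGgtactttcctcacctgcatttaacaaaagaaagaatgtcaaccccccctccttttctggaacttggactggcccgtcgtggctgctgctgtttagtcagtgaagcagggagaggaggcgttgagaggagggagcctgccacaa
Bst2 (chr16:18254918-18255217, minus strand): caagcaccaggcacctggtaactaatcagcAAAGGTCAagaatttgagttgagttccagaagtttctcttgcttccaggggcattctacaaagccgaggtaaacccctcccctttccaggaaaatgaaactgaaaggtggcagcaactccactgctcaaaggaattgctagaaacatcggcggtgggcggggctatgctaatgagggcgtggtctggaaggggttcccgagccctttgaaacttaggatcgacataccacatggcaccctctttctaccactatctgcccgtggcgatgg

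Of the 13869 genes tested, 12749 symbols matched current rat names and 10455 had a promoter of 300 bases, among them 23 of the 31 genes with opposite responses. GGAATG (TEAD) stood in 3 of these 23 promoters (13%) and in 11.1% of all 10455, and AAAGGTCA (NR4A receptors) in 1 of 23 (4.35%) and 0.823% of all. TGACGTCA (CRE, bound by CREB), TGANTCA (AP-1), CTANNNNTAG (MEF2) and TCACNCCAC (sterol regulatory element) stood in 0 of 23, and in 3.11%, 4.9%, 2.98% and 1.18% of all. Both strands were read, none of these motifs contains another, and a match is a description of letters, not a site.

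Of the 31 genes with opposite responses, 19 rose in cardiomyocytes and fell in fibroblasts and 12 did the reverse. Mef2c, a transcription factor of the muscle lineage, the ERK inhibitor Spry4 and Snap91, a clathrin assembly protein of synaptic vesicles, were among the 19; the Dishevelled-binding protein Dact2 was among the 12. All 31 had no overlap between the libraries of the media in either cell type, which was so, with opposite signs, for 948 of all genes tested (6.84%). The genes named by largest difference in each class, here and below, were chosen for no overlap in the cell types that define it. Their separation there is thus no support. The median difference was log2 1.01 for the 19, with responses of 0.42 in cardiomyocytes and -0.53 in fibroblasts, and log2 -1.25 for the 12, with -0.52 and 0.71. The class rests on both responses and the difference being called. It held 5 genes when each cell type was fitted alone, 372 without both libraries that stand apart, 157 without C-SFM-2, 69 without C-PE-1 and 24 without F-SFM-2. With any 1 of the other 7 left out it held 1 to 5.

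**Figure D3:**
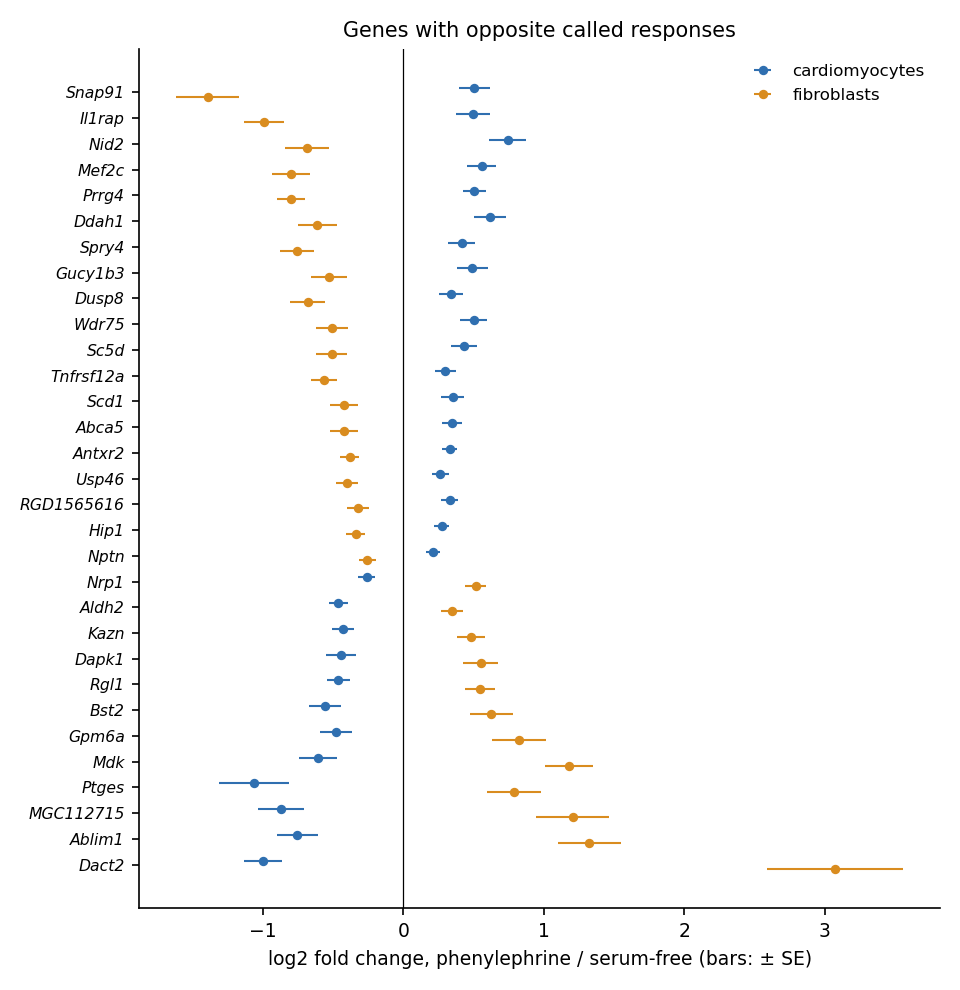
Fitted log2 fold change with phenylephrine (x axis, bars ± SE) in cardiomyocytes (blue) and fibroblasts (orange) for the 31 genes called in both responses with opposite signs, ordered by the difference. The 19 genes at the top rose in cardiomyocytes and fell in fibroblasts, and the 12 at the bottom did the reverse, Dact2 with the largest difference at log2 -4.07.

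Mef2c was at 77.4, 91.9 and 72 CPM in serum-free cardiomyocytes and 102, 128 and 125 CPM with phenylephrine, and at 56.7 and 52.5 CPM, and 30.1 and 32.7 CPM with phenylephrine, in fibroblasts. All 3 treated cardiomyocyte libraries lay above their controls and both treated fibroblast libraries below theirs. It rose 1.47-fold in cardiomyocytes (log2 0.56 ± 0.10, edgeR adjusted p = 0.0236) and fell 1.74-fold in fibroblasts (log2 -0.80 ± 0.13, adjusted p = 0.00941), a difference of log2 1.36 ± 0.17 (adjusted p = 0.00392). Its excess in cardiomyocytes over fibroblasts was log2 0.56 in serum-free medium and 1.92 with phenylephrine.

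Spry4 was level between the cell types without agonist, at 54.4, 56.5 and 47.1 CPM in cardiomyocytes and 54.8 and 51.3 CPM in fibroblasts. With phenylephrine it stood at 60, 73.2 and 77.2 CPM in cardiomyocytes and 32.1 and 30.7 CPM in fibroblasts, with no overlap between media in either. The response was log2 0.42 ± 0.0961 in cardiomyocytes (edgeR adjusted p = 0.0416) and -0.76 ± 0.12 in fibroblasts (0.00683), and the difference 1.17 ± 0.16 (adjusted p = 0.00412). Snap91 was far higher in cardiomyocytes, at 199, 228 and 162 CPM without and 259, 275 and 301 CPM with phenylephrine, against 7.54 and 6.56 CPM, and 2.5 and 2.87 CPM with phenylephrine, in fibroblasts. Its libraries too separated by medium in both cell types, upward in cardiomyocytes and downward in fibroblasts. The difference of log2 1.90 ± 0.25 (edgeR adjusted p = 0.00492) was made up of 0.51 ± 0.11 and -1.39 ± 0.23.

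Dact2 went the other way. It was at 16.1, 15.9 and 21.8 CPM in serum-free cardiomyocytes and 9.71, 8.96 and 8.4 CPM with phenylephrine, so that every treated library lay below every control. In fibroblasts it was at 0.152 and 0.104 CPM and then 1.04 and 1.22 CPM, or 5 counts in all against 42, a ratio of 8.78 with a 95% counting interval of 3.48 to 28.4. The difference was log2 -4.07 ± 0.49 (edgeR adjusted p = 0.00286), with -0.997 ± 0.13 in cardiomyocytes, and its fibroblast value rests on these few counts. Cdkn1c, which encodes the cyclin-dependent kinase inhibitor p57, was at 4.92, 4.17 and 4.46 CPM in serum-free and 2.86, 3.26 and 3.52 CPM in treated cardiomyocytes, and at 2.43 and 3.23 CPM in serum-free and 17.6 and 23.5 CPM in treated fibroblasts. Its rise in fibroblasts was 7.26-fold (log2 2.86 ± 0.19, edgeR adjusted p = 2.87e-05), whereas the cardiomyocyte value of log2 -0.49 ± 0.17 did not pass the test (adjusted p = 0.125) although its libraries did not overlap. The difference was log2 -3.35 ± 0.26 (adjusted p = 0.00019), and Cdkn1c was the higher in cardiomyocytes without agonist (log2 0.68) and the higher in fibroblasts with it (-2.67). Mef2c, Spry4, Snap91, Dact2 and Cdkn1c kept their calls under the 19 alternatives that test the difference again. Leaving out any 1 library left the differences between log2 1.28 and 1.46, 1.10 and 1.27, 1.78 and 2.02, -4.36 and -3.84, and -3.57 and -3.13, in that order.

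**Figure D4:**
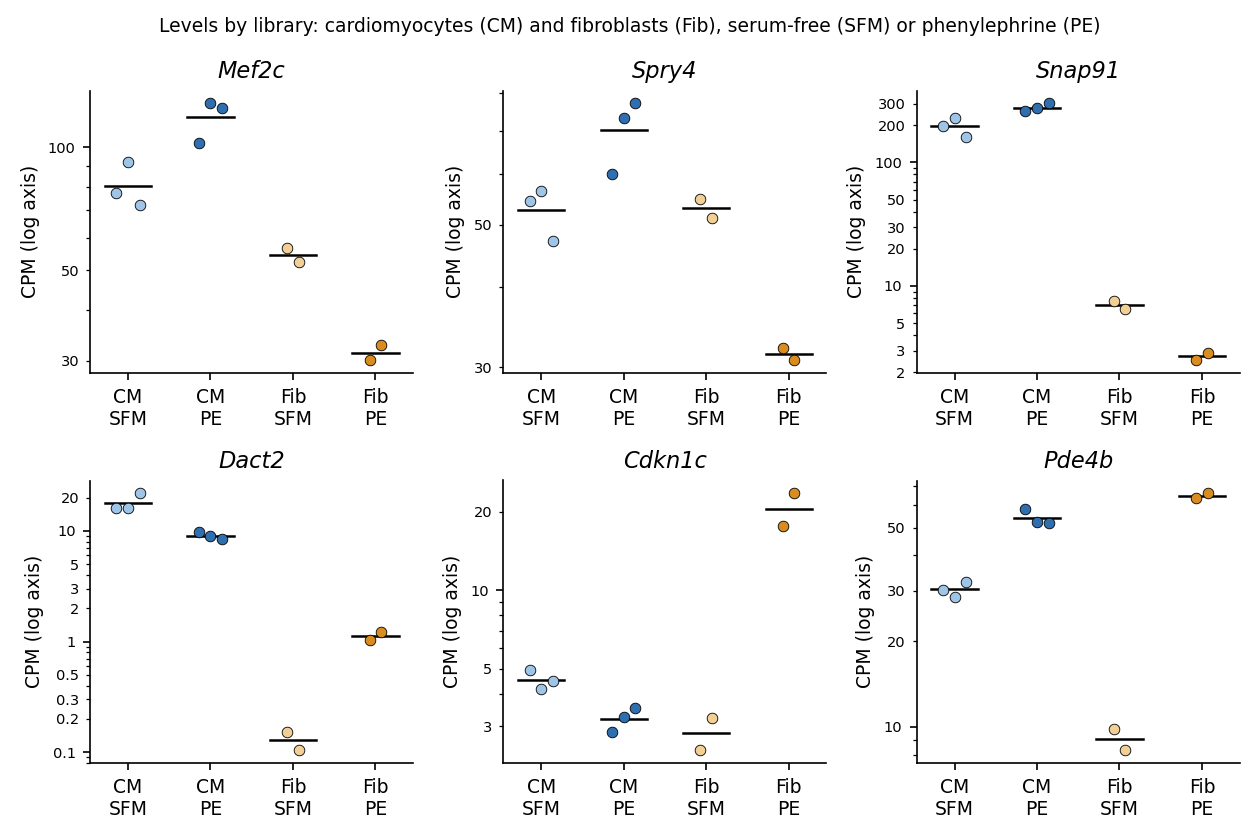
Level by library (CPM, log axis) of Mef2c, Spry4, Snap91, Dact2, Cdkn1c and Pde4b in cardiomyocytes (CM, blue) and fibroblasts (Fib, orange), in serum-free medium (SFM, light) or with phenylephrine (PE, dark); lines mark the means of 3 or 2 libraries. Mef2c, Spry4 and Snap91 moved up in cardiomyocytes and down in fibroblasts, Dact2 the reverse, Cdkn1c was called in fibroblasts alone and Pde4b rose in both.

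The other genes named among the 19 code for a receptor subunit, matrix and enzymes. Il1rap, the accessory chain of the interleukin 1 receptor, was at 17.2, 23.9 and 16.9 CPM in serum-free and 28.3, 27.3 and 25.9 CPM in treated cardiomyocytes, and at 50.9 and 45.6 CPM, and 25.1 and 23.5 CPM with phenylephrine, in fibroblasts. The treated libraries of both cell types thus came close from opposite sides, with a difference of log2 1.49 ± 0.19 (edgeR adjusted p = 0.00338). Nid2, a nidogen of the basement membrane, was at 83.5, 111 and 74.4 CPM and 139.5, 146 and 164 CPM in cardiomyocytes and 219 and 204 CPM and 136 and 128 CPM in fibroblasts. It showed the same approach, by log2 1.43 ± 0.20 (edgeR adjusted p = 0.0077). The call for Nid2 was lost without F-PE-1 or F-PE-2 (adjusted p = 0.054 to 0.0625). Prrg4, a transmembrane protein with a Gla domain, was at 35.9, 40 and 32.5 CPM and 54.8, 51.4 and 47.3 CPM in cardiomyocytes and 63.8 and 63.3 CPM and 37.1 and 36.1 CPM in fibroblasts. It passed from the higher level in fibroblasts to the higher in cardiomyocytes, a difference of log2 1.30 ± 0.13 (edgeR adjusted p = 0.000993). Ddah1, which degrades the nitric oxide synthase inhibitor dimethylarginine, was at 302, 412 and 299.5 CPM and 495, 526 and 532 CPM in cardiomyocytes and 854 and 749 CPM and 526 and 523 CPM in fibroblasts. The level in fibroblasts came down to that in cardiomyocytes (difference log2 1.23 ± 0.18, edgeR adjusted p = 0.006). For Ddah1 the call was lost without F-PE-1 or F-PE-2 (adjusted p = 0.054 to 0.0559).

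The remaining genes of the 19 differed by log2 0.47 to 1.02. They include Gucy1b3, the beta subunit of soluble guanylate cyclase (log2 1.02 ± 0.17, edgeR adjusted p = 0.0103), with the call lost without F-PE-1 or F-PE-2 (adjusted p = 0.0632 to 0.0788). Dusp8, a MAP kinase phosphatase, differed by log2 1.02 ± 0.15 (0.00599). Dusp8 lost this call without F-PE-1 (adjusted p = 0.054). Wdr75, a factor of ribosome biogenesis, differed by 1.01 ± 0.15 (0.00625). The call for Wdr75 was lost without F-PE-1 or F-PE-2 (adjusted p = 0.054 to 0.0542). The lipid desaturase Scd1 differed by 0.77 ± 0.13 (0.0102). For Scd1 the call was lost without F-PE-1 or F-PE-2 (adjusted p = 0.0634 to 0.0807). Tnfrsf12a, the receptor of the cytokine TWEAK (log2 0.87 ± 0.12, 0.00464), Antxr2, a receptor for matrix proteins (0.71 ± 0.0875, 0.00286), and the clathrin adaptor Hip1 (0.61 ± 0.0869, 0.00534) kept their calls without any 1 library. The deubiquitinase Usp46 (0.66 ± 0.0966, 0.00599) lost its call without F-PE-1 (adjusted p = 0.054), the transporter Abca5 (0.77 ± 0.12, 0.00796) without F-PE-2 (adjusted p = 0.0677), RGD1565616 (0.65 ± 0.10, 0.00765) without F-PE-1 or F-PE-2 (adjusted p = 0.054 to 0.0625), and the adhesion protein Nptn (0.47 ± 0.0782, 0.0102) without F-PE-1 or F-PE-2 (adjusted p = 0.0741 to 0.0748). The last member, Sc5d, belongs to the cholesterol genes described further on.

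Among the 12 genes that fell in cardiomyocytes and rose in fibroblasts, Ablim1, an actin-binding LIM protein, was at 166, 109 and 171 CPM in serum-free and 92.4, 84.6 and 87.5 CPM in treated cardiomyocytes, and at 7.74 and 8.13 CPM, and 19.5 and 20.2 CPM with phenylephrine, in fibroblasts. The difference of log2 -2.08 ± 0.27 (edgeR adjusted p = 0.00599) left it higher in cardiomyocytes in both media. Mdk, the heparin-binding growth factor midkine, was at 15.6, 13.5 and 18.2 CPM and 11.2, 10.4 and 9.6 CPM in cardiomyocytes and 6.07 and 8.13 CPM and 16.8 and 15.4 CPM in fibroblasts. It was higher in cardiomyocytes without agonist and in fibroblasts with it, a difference of log2 -1.79 ± 0.22 (edgeR adjusted p = 0.00286). Ptges, a prostaglandin E synthase, was at 1.83, 1.66 and 1.91 CPM and 1.01, 0.598 and 0.965 CPM in cardiomyocytes and 7.74 and 5.42 CPM and 10.7 and 12 CPM in fibroblasts. Its excess in fibroblasts widened by log2 -1.85 ± 0.31 (edgeR adjusted p = 0.0112). Ptges lost this call without F-PE-1 or F-PE-2 (adjusted p = 0.054 to 0.0677).

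Gpm6a, a membrane glycoprotein best known from neurons, was at 16.5, 13.5 and 16.2 CPM and 10.4, 11.4 and 11.4 CPM in cardiomyocytes and 2.28 and 2.29 CPM and 3.49 and 4.64 CPM in fibroblasts (difference log2 -1.31 ± 0.22, edgeR adjusted p = 0.0121). That call was lost without F-SFM-1 or F-PE-2 (adjusted p = 0.0656 to 0.0885). Bst2, the interferon-induced antiviral protein tetherin, was at 24.9, 26.8 and 29 CPM and 15.2, 20.6 and 19 CPM in cardiomyocytes and 8.4 and 9.59 CPM and 14.6 and 13.1 CPM in fibroblasts. Its difference was log2 -1.18 ± 0.19 (edgeR adjusted p = 0.00843). The call for Bst2 was lost without F-SFM-1 or F-PE-1 (adjusted p = 0.0575 to 0.0657). The others were MGC112715 (log2 -2.07 ± 0.31, 0.00599), Rgl1, an exchange factor for Ral (-1.01 ± 0.13, 0.00412), Kazn (-0.91 ± 0.13, 0.00486), the aldehyde dehydrogenase Aldh2 (-0.81 ± 0.10, 0.00338), the semaphorin and VEGF receptor Nrp1 (-0.77 ± 0.0951, 0.00286) and the death-associated kinase Dapk1 (-0.99 ± 0.16, 0.00998). Dapk1 alone of these lost its call, without F-SFM-1, F-PE-1 or F-PE-2 (adjusted p = 0.0575 to 0.0712).

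One-sided responses were more often those of fibroblasts, 229 genes (115 up, 114 down) against 92 of cardiomyocytes (42 up, 50 down), which was 690 against 1224 without both libraries that stand apart. In 175 of the 229 the fitted cardiomyocyte response was under 0.25 on the log2 scale in size, and in 38 of the 92 the fitted fibroblast response was. The median difference was log2 -1.13 for genes that rose in fibroblasts alone and 0.69 for those that fell in them alone, and 0.63 and -0.94 for those that rose and fell in cardiomyocytes alone. Genes called in fibroblasts alone numbered 42 without F-PE-2, 43 without F-PE-1, 79 without F-SFM-1, 132 without C-PE-2, 146 without C-PE-3 and 148 without C-SFM-1. Those called in cardiomyocytes alone numbered 6 without C-PE-2, 10 without C-SFM-3 or F-PE-1, 12 without C-PE-3 or F-PE-2, 14 without C-SFM-1, 30 without F-SFM-1, 275 without C-PE-1 and 624 without C-SFM-2.

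Of the genes that rose in cardiomyocytes alone, the muscle enolase Eno3 was at 27.2, 35.7 and 25.2 CPM without and 70.3, 66.7 and 71.9 CPM with phenylephrine, and at 22.2 and 16 CPM, and 16.7 and 18 CPM with phenylephrine, in fibroblasts. Treated cardiomyocytes stood well clear of their controls while fibroblast libraries overlapped, and the difference was log2 1.39 ± 0.23 (edgeR adjusted p = 0.0116). For Eno3 the call was lost without F-PE-1 or F-PE-2 (adjusted p = 0.0677 to 0.0859). Itga7, the laminin receptor subunit of muscle, was at 259, 343 and 231 CPM and 432, 411 and 438 CPM in cardiomyocytes and 42.1 and 34.2 CPM and 23.7 and 21.8 CPM in fibroblasts. Its fitted fibroblast response of log2 -0.75 ± 0.18 did not pass the test (adjusted p = 0.0533); the difference was 1.37 ± 0.22 (edgeR adjusted p = 0.0128). Itga7 lost this call without F-SFM-1, F-PE-1 or F-PE-2 (adjusted p = 0.0655 to 0.0908). Atcay, which codes for caytaxin, was at 3.76, 6.96 and 3.61 CPM and 9.18, 10.7 and 11.5 CPM in cardiomyocytes and 4.6 and 4.43 CPM and 2.45 and 2.71 CPM in fibroblasts. Atcay differed by log2 1.95 ± 0.37 (edgeR adjusted p = 0.0207). The call for Atcay was lost without C-PE-2, C-PE-3, F-SFM-1, F-PE-1 or F-PE-2 (adjusted p = 0.053 to 0.13). The lysophospholipid transporter Mfsd2a differed by log2 1.41 ± 0.27 (edgeR adjusted p = 0.019), from 2.99, 4.82 and 3.57 to 5.62, 7.39 and 6.8 CPM in cardiomyocytes and from 14.9 and 11.6 to 8.86 and 8.57 CPM in fibroblasts. This call was lost without C-SFM-3, C-PE-2, C-PE-3, F-SFM-1, F-PE-1 or F-PE-2 (adjusted p = 0.051 to 0.108).

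Of the genes that fell in cardiomyocytes alone, Adra1b codes for an alpha1-adrenergic receptor, a target of the agonist itself. It was at 12.7, 8.03 and 12.9 CPM in serum-free and 5.67, 7.01 and 6.8 CPM in treated cardiomyocytes and at 0.506 and 0.208 CPM, and 1.04 and 1.33 CPM with phenylephrine, in fibroblasts, the latter from 14 and 44 counts (ratio 3.28, 95% counting interval 1.77 to 6.49). The cardiomyocyte libraries did not overlap, with C-SFM-2 lowest of the controls, and the difference was log2 -2.49 ± 0.54 (edgeR adjusted p = 0.0318). The fitted response was log2 -0.79 ± 0.19 in cardiomyocytes and 1.70 ± 0.50 in fibroblasts, the larger in fibroblasts although it did not pass the test (adjusted p = 0.0947). For Adra1b the call was lost without C-SFM-1, C-SFM-3, C-PE-2, C-PE-3, F-SFM-1, F-SFM-2, F-PE-1 or F-PE-2 (adjusted p = 0.0586 to 0.162) and with limma-voom (0.0901). Of the 7 adrenergic receptor genes tested it was the 1 called, against 3.25% of all genes. Gpd1, the glycerol 3-phosphate dehydrogenase that links glycolysis to lipid synthesis, was at 21.9, 19.1 and 21.7 CPM and 14.3, 13.5 and 15.1 CPM in cardiomyocytes, and near the floor at 0.0506 and 0.0521 CPM and 0.261 and 0.332 CPM in fibroblasts. The fibroblast values rest on 2 and 11 counts (ratio 5.75, 95% counting interval 1.25 to 53.4). Their fitted response, log2 2.39 ± 0.59, was larger than the -0.55 ± 0.0923 of cardiomyocytes and did not pass the test (adjusted p = 0.102). The call for its difference of log2 -2.94 ± 0.59 (edgeR adjusted p = 0.0334) was lost without C-SFM-1, C-SFM-3, C-PE-2, F-SFM-1, F-SFM-2, F-PE-1 or F-PE-2 (adjusted p = 0.0536 to 0.201) and with DESeq2 (0.0781) or limma-voom (0.0554). Hk3, a hexokinase, was at 12.2, 10.4 and 13.1 CPM and 7.27, 4.29 and 4.97 CPM in cardiomyocytes and 0.658 and 1.25 CPM and 1.98 and 1.55 CPM in fibroblasts, and the call for the difference of log2 -2.00 ± 0.44 (0.0327) was lost without C-SFM-1, C-SFM-3, C-PE-2, C-PE-3, F-SFM-1, F-PE-1 or F-PE-2 (adjusted p = 0.0651 to 0.208) and with limma-voom (0.0516). The guidance cue Ntn1, netrin 1, was at 13.4, 8.3 and 13.8 CPM and 5.04, 6.63 and 7 CPM in cardiomyocytes. In fibroblasts it was at 5.06 and 7.97 CPM and 11.7 and 11.4 CPM. Its fitted fibroblast response of log2 0.83 ± 0.27 did not pass the test (edgeR adjusted p = 0.135), although the libraries did not overlap. The call for its difference of log2 -1.76 ± 0.35 (0.0263) was lost without C-SFM-1, C-SFM-3, C-PE-2, C-PE-3, F-SFM-1, F-PE-1 or F-PE-2 (adjusted p = 0.0517 to 0.126).

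Beside these falls, the summed level of leukocyte markers in the cardiomyocyte cultures was 362 to 410 CPM in serum-free medium and 238 to 305 CPM with phenylephrine, and 38.4 to 60.8 and 51.1 to 55.9 CPM in fibroblasts. Of the 20 leukocyte markers tested, 0 were called in the difference by edgeR (7 at an unadjusted p under 0.05, 1 by DESeq2, 0 by limma-voom), and 8 were without both libraries that stand apart. The median difference was log2 -0.86, and 19 of 20 had a negative fitted difference. Over all 13869 genes, 2644 had an unadjusted edgeR p under 0.05 and 790 were called by DESeq2. Without both libraries that stand apart 2657 of 13786 genes were called. The 7 erythroid markers summed to 15 to 20.2 CPM in serum-free and 2.66 to 7.11 CPM in treated cardiomyocytes. The part of these in the genes that fell in cardiomyocytes alone was not tested.

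Genes that rose in fibroblasts alone included secreted regulators. Smoc2, a matricellular protein, was at 8.39, 3.75 and 9.14 CPM in serum-free and 3.66, 3.26 and 3.67 CPM in treated cardiomyocytes and at 17.2 and 15.8 CPM, and 46.2 and 44.3 CPM with phenylephrine, in fibroblasts. Its fitted cardiomyocyte response of log2 -1.02 ± 0.28 did not pass the test (edgeR adjusted p = 0.0803), although the libraries did not overlap. Smoc2 responses differed by log2 -2.48 ± 0.39 (edgeR adjusted p = 0.0122). Smoc2 lost this call without F-SFM-1, F-PE-1 or F-PE-2 (adjusted p = 0.0636 to 0.0657). Nppc, the C-type natriuretic peptide, was near the floor in cardiomyocytes, at 0.145, 0.321 and 0.213 CPM and 0.265, 0.163 and 0.241 CPM, and rose from 2.07 and 1.61 to 10.2 and 9.95 CPM in fibroblasts. The rise in fibroblasts was 5.43-fold (edgeR adjusted p = 0.000109) and the difference log2 -2.43 ± 0.50 (0.0255). The call for Nppc was lost without C-SFM-3, C-PE-2, C-PE-3, F-PE-1 or F-PE-2 (adjusted p = 0.0569 to 0.0986). Pi16, a peptidase inhibitor of fibroblasts, was at 5.45, 6.15 and 6.29 CPM and 7.69, 4.56 and 4.29 CPM in cardiomyocytes and 3.74 and 4.74 CPM and 18.9 and 22.3 CPM in fibroblasts. Only its fibroblast libraries separated, and the difference of log2 -2.40 ± 0.32 (edgeR adjusted p = 0.0044) kept its call under the 19 alternatives that test the difference again.

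In fibroblasts the markers of epicardial cells summed to 152 to 170 CPM in serum-free medium and 248 to 254 CPM with phenylephrine. Those of endothelial cells summed to 529 to 614 and 732 to 789 CPM, and those of Schwann and neural cells to 35 to 39 and 46.3 CPM. The part of these in the genes that rose in fibroblasts was not tested.

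Of the genes that fell in fibroblasts alone, Sorbs2, an adaptor of actin filaments and Z-discs, was at 1392, 1801 and 1521 CPM in serum-free and 2089, 2051 and 2039 CPM in treated cardiomyocytes, and at 59.3 and 44.3 CPM, and 21.8 and 23.6 CPM with phenylephrine, in fibroblasts. The fall of log2 -1.19 ± 0.15 in fibroblasts stood against a fitted 0.39 ± 0.11 in cardiomyocytes that did not pass the test although its libraries did not overlap, and the difference of 1.58 ± 0.19 (edgeR adjusted p = 0.00286) kept its call under the 19 alternatives that test the difference again. Rgs6, a brake on G protein signalling, was level in cardiomyocytes at 10.7, 12 and 10.9 CPM and 10.7, 10.4 and 11 CPM, and at 1.67 and 1.77 CPM, and 0.573 and 0.497 CPM with phenylephrine, in fibroblasts. Rgs6 responses differed by log2 1.604 ± 0.25 (edgeR adjusted p = 0.00796). For Rgs6 the call was lost without F-PE-1 or F-PE-2 (adjusted p = 0.054 to 0.0722). Inhba, the subunit of activin A, was at 46.2, 55.5 and 42 CPM and 74, 53.4 and 49 CPM in cardiomyocytes, with overlap, and 235 and 199.7 CPM and 104 and 97.7 CPM in fibroblasts. Inhba responses differed by log2 1.40 ± 0.25 (edgeR adjusted p = 0.0216). Inhba lost this call without C-SFM-1, C-SFM-3, F-SFM-1, F-PE-1 or F-PE-2 (adjusted p = 0.0504 to 0.12) and with no filter (0.0505). Fam174b was at 13.9, 15.9 and 11.5 CPM and 18.7, 18.7 and 23 CPM in cardiomyocytes. In fibroblasts it was at 2.28 and 1.61 CPM and 0.782 and 0.718 CPM. Its fitted cardiomyocyte response of log2 0.55 ± 0.14 did not pass the test (edgeR adjusted p = 0.0507), although the libraries did not overlap. The difference was log2 1.92 ± 0.35 (edgeR adjusted p = 0.0156). The call for Fam174b was lost without F-SFM-1, F-PE-1 or F-PE-2 (adjusted p = 0.0982 to 0.111) and with limma-voom (0.0615).

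In 7 genes both responses were called in the same direction and differed in size. This class numbered 2 without C-SFM-1, C-SFM-3, C-PE-2, C-PE-3, F-PE-1 or F-PE-2, 4 without F-SFM-1 and 22 without C-SFM-2. Pde4b, a phosphodiesterase that degrades cyclic AMP, rose from 30.3, 28.6 and 32.2 to 58.2, 52.1 and 51.8 CPM in cardiomyocytes and from 9.86 and 8.28 to 63.3 and 65.9 CPM in fibroblasts. These are rises of 1.78-fold and 7.11-fold, and the difference was log2 -2.00 ± 0.13 (edgeR adjusted p = 9.51e-05). The prostaglandin transporter Slco2a1 rose 2.2-fold and 7.96-fold, from 23.8, 27.8 and 23.7 to 46.2, 57.7 and 61.7 CPM and from 2.18 and 1.41 to 14.8 and 13.9 CPM (difference log2 -1.85 ± 0.25, edgeR adjusted p = 0.00482). Cpxm2, a carboxypeptidase-like protein, rose 1.97-fold and 8.29-fold, from 0.868, 0.963 and 1.11 to 2.17, 1.36 and 2.27 CPM and from 13.8 and 17.9 to 128 and 135 CPM (difference log2 -2.07 ± 0.29, edgeR adjusted p = 0.00534). Pde4b, Slco2a1 and Cpxm2 kept their calls under the 19 alternatives that test the difference again. The glycosyltransferase Mgat3 differed by log2 -0.83 ± 0.17 (0.0236). For Mgat3 the call was lost without C-SFM-1, C-SFM-3, C-PE-2, C-PE-3, F-SFM-1, F-PE-1 or F-PE-2 (adjusted p = 0.0506 to 0.147). The orphan receptor Nr4a3 differed by -0.74 ± 0.18 (0.0447). Nr4a3 lost this call without C-SFM-1, C-SFM-3, C-PE-2, C-PE-3, F-SFM-1, F-SFM-2, F-PE-1 or F-PE-2 (adjusted p = 0.0636 to 0.211) and with limma-voom (0.0596) or no filter (0.0525). The collagen IV chain Col4a3 differed by -0.68 ± 0.15 (0.0327). The call for Col4a3 was lost without C-SFM-1, C-SFM-3, C-PE-3, F-SFM-2, F-PE-1 or F-PE-2 (adjusted p = 0.0578 to 0.148). These 6 rose more in fibroblasts; Cnksr3 fell more in them (difference 0.44 ± 0.0991, 0.0375). For Cnksr3 the call was lost without C-SFM-1, C-SFM-3, C-PE-2, C-PE-3, F-SFM-1, F-PE-1 or F-PE-2 (adjusted p = 0.0509 to 0.187) and with scaling by library size alone (0.105).

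Cholesterol synthesis genes had the higher response in cardiomyocytes for 8 of 23 tested and the lower for 0. Over all genes 1.63% were called higher. The list had a median difference of log2 0.45 against 0.004 over all genes. Fitted differences were positive for 22 of 23. In cardiomyocytes 10 of the 23 were called up (1.79% of all genes), and in fibroblasts 1 was called down (1.77% of all genes), Sc5d, a sterol desaturase; the median responses were log2 0.42 and -0.24. Idi1, an isomerase of the isoprenoid steps, was at 93.7, 109 and 91.8 CPM without and 149, 166 and 167 CPM with phenylephrine in cardiomyocytes and at 171 and 129 CPM, and 109 and 119 CPM with phenylephrine, in fibroblasts. Every treated cardiomyocyte library lay above its controls and every treated fibroblast library below, and the difference was log2 1.11 ± 0.17 (edgeR adjusted p = 0.00765). Idi1 lost this call without F-PE-1 (adjusted p = 0.0657).

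Cyp51, the lanosterol demethylase, was at 304, 336 and 307 CPM and 455, 450.5 and 472 CPM in cardiomyocytes and 711 and 589.9 CPM and 543 and 539 CPM in fibroblasts (difference log2 0.81 ± 0.12, edgeR adjusted p = 0.00599). The call for Cyp51 was lost without F-PE-1 or F-PE-2 (adjusted p = 0.0513 to 0.0542). Hsd17b7, a sterol reductase, was at 16, 17.7 and 17.3 CPM and 24.3, 24.5 and 24.5 CPM in cardiomyocytes and 39.4 and 33.9 CPM and 27.2 and 31.1 CPM in fibroblasts (log2 0.86 ± 0.13, 0.00625). For Hsd17b7 the call was lost without F-PE-1 (adjusted p = 0.054). Media did not overlap for Cyp51 or Hsd17b7 in either cell type. Sc5d differed by log2 0.94 ± 0.15 (0.00791). Sc5d lost this call without F-PE-1 or F-PE-2 (adjusted p = 0.0584 to 0.0657). The squalene enzymes Sqle (0.80 ± 0.17, 0.0286) and Fdft1 (0.74 ± 0.15, 0.0224), and Msmo1 (0.86 ± 0.18, 0.029) and Nsdhl (0.66 ± 0.12, 0.0172), which demethylate sterols, were the others. Sqle lost its call without C-SFM-1, C-SFM-3, C-PE-2, C-PE-3, F-SFM-1, F-PE-1 or F-PE-2 (adjusted p = 0.0662 to 0.164), Fdft1 without C-SFM-1, C-PE-2, C-PE-3, F-SFM-1, F-PE-1 or F-PE-2 (adjusted p = 0.0547 to 0.131), Msmo1 without C-SFM-1, C-SFM-3, C-PE-2, C-PE-3, F-SFM-1, F-PE-1 or F-PE-2 (adjusted p = 0.0679 to 0.158) and Nsdhl without C-PE-2, F-PE-1 or F-PE-2 (adjusted p = 0.0515 to 0.111). The count of called cholesterol genes was 0 without F-PE-1, 2 without F-PE-2, 4 without C-PE-2, 5 without C-SFM-1, C-PE-3 or F-SFM-1 and 13 without C-SFM-2. It was 18 without both libraries that stand apart, where 2657 of 13786 genes were called. Of the 6 called cholesterol genes with a promoter, Idi1 and Msmo1 hold TGANTCA (AP-1), and none of the 6 holds TCACNCCAC. Of the 16 genes of the list with a promoter, 2 hold TGANTCA and 0 hold TCACNCCAC. Over all promoters the shares were 4.9% and 1.18%. The part of these motifs was not tested.

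**Figure D5:**
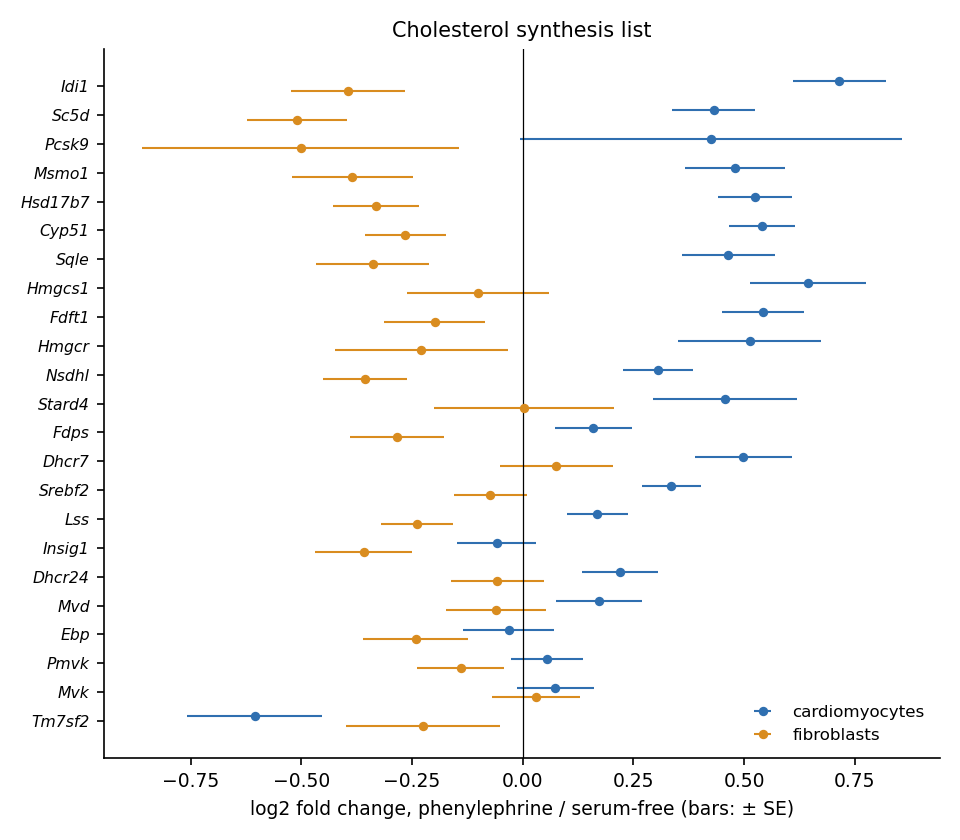
Fitted log2 fold change with phenylephrine (x axis, bars ± SE) in cardiomyocytes (blue) and fibroblasts (orange) for the 23 genes of the cholesterol synthesis list, ordered by the difference. Most points lie right of 0 in cardiomyocytes and left of 0 in fibroblasts; Tm7sf2, at the bottom, was the 1 gene with a negative fitted difference.

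Among genes inducible by cyclic AMP, 9 of 24 tested were called up in fibroblasts (2.06% of all genes) and 4 in cardiomyocytes (1.79% of all genes). Of the 24, 5 had the lower response in cardiomyocytes (against 1.62% of all genes) and 1 the higher (1.63% of all genes), Inhba, with a median of log2 -0.34 against 0.004 over all genes. The orphan receptor Nr4a1 was at 30.1, 21.6 and 30.8 CPM and 30.9, 29.8 and 29.3 CPM in cardiomyocytes, with overlap, and at 20.1 and 13.4 CPM, and 44.7 and 44.4 CPM with phenylephrine, in fibroblasts. The difference was log2 -1.29 ± 0.24 (edgeR adjusted p = 0.0222). The call for Nr4a1 was lost without C-SFM-1, C-SFM-3, C-PE-2, C-PE-3, F-PE-1 or F-PE-2 (adjusted p = 0.0536 to 0.112). The phosphodiesterases Pde4d (log2 -1.70 ± 0.30, 0.0207) and Pde3a (-0.89 ± 0.15, 0.0121) rose in fibroblasts alone, Pde4d with the call lost without C-PE-2, C-PE-3, F-SFM-1, F-PE-1 or F-PE-2 (adjusted p = 0.0529 to 0.118) and Pde3a without F-SFM-1, F-PE-1 or F-PE-2 (adjusted p = 0.0601 to 0.0721). The count of called genes was 1 without F-PE-1 or F-PE-2, 2 without F-SFM-1 and 3 without C-SFM-1, C-SFM-3, C-PE-2 or C-PE-3. With both libraries that stand apart left out it was 11 (2657 of 13786 over all genes).

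Of 29 myofibroblast and TGF-beta genes, 4 had the higher response in cardiomyocytes and 1 the lower, against 1.63% and 1.62% of all genes. The median difference was log2 0.55 against 0.004 over all genes. Tgfb3, a TGF-beta ligand, was at 183, 248 and 158 CPM and 267, 241 and 256 CPM in cardiomyocytes, with overlap, and fell from 2199 and 1775 to 993 and 968 CPM in fibroblasts (difference log2 1.40 ± 0.23, edgeR adjusted p = 0.0138). For Tgfb3 the call was lost without F-SFM-1, F-PE-1 or F-PE-2 (adjusted p = 0.07 to 0.0935). Tgfb2, another ligand, fell from 319 and 268 to 179.6 and 188 CPM in fibroblasts and was at 372, 433 and 370.3 CPM and 437, 441 and 405 CPM in cardiomyocytes (0.80 ± 0.13, 0.00968). Tgfb2 lost this call without F-PE-1 or F-PE-2 (adjusted p = 0.062 to 0.0762). Neither ligand was called in the cardiomyocyte response, and their fitted cardiomyocyte values were log2 0.38 ± 0.15 for Tgfb3 and 0.13 ± 0.0828 for Tgfb2. Skil, a feedback inhibitor of SMAD proteins, rose in cardiomyocytes alone (difference 0.55 ± 0.10, 0.0162), lost without C-PE-2, F-SFM-1, F-PE-1 or F-PE-2 (adjusted p = 0.0529 to 0.112), and Inhba is given above. Tgfbr2, the type II receptor, had the lower fitted response in cardiomyocytes (-0.68 ± 0.14, 0.0274). The call for Tgfbr2 was lost without C-SFM-1, C-SFM-3, C-PE-2, C-PE-3, F-SFM-1, F-SFM-2, F-PE-1 or F-PE-2 (adjusted p = 0.0603 to 0.153). The count was 0 without F-PE-1 or F-PE-2, 1 without F-SFM-1, 3 without C-SFM-1, C-SFM-3 or C-PE-2 and 17 without C-SFM-2. It was 20 with both libraries that stand apart left out (2657 of 13786 over all genes) and 14 by DESeq2 (790 of 13869). Markers of smooth muscle and pericytes summed to 5231 to 7676 CPM in serum-free and 7727 to 8301 CPM in treated cardiomyocytes and to 12259 to 12308 and 9401 to 9684 CPM in fibroblasts; their part was not tested.

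TEAD and YAP targets had 3 of 22 higher and 1 lower, against 1.63% and 1.62% of all genes (median log2 0.33 against 0.004): Tgfb2, the Hippo kinase Lats2 (0.50 ± 0.0948, 0.0189) and Ankrd1, a stretch-responsive protein (0.87 ± 0.21, 0.0485), against the factor Tead2 (-0.56 ± 0.11, 0.0222). Lats2 lost its call without C-SFM-1, C-SFM-3, F-SFM-1, F-PE-1 or F-PE-2 (adjusted p = 0.0539 to 0.116), Tead2 without C-SFM-1, C-SFM-3, C-PE-2, F-SFM-1, F-PE-1 or F-PE-2 (adjusted p = 0.0513 to 0.123), and Ankrd1 without C-SFM-1, C-SFM-3, C-PE-2, C-PE-3, F-SFM-1, F-PE-1 or F-PE-2 (adjusted p = 0.102 to 0.199) and with limma-voom (0.0625), a filter at 10 CPM (0.0556) or scaling by library size alone (0.052). Without F-SFM-1 the Ankrd1 difference was log2 0.54. The count was 0 without F-PE-1 or F-PE-2, 1 without C-SFM-1, C-SFM-3 or F-SFM-1, 2 without C-PE-2 and 10 without C-SFM-2. With both libraries that stand apart left out it was 14 (2657 of 13786 over all genes).

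Interferon-stimulated genes had 0 of 27 higher and 3 lower, against 1.63% and 1.62% of all genes. The median was log2 -0.53 against 0.004 over all genes. Ifi27 was at 324, 347 and 341 CPM in serum-free and 224, 210.5 and 235 CPM in treated cardiomyocytes and at 132 and 138 CPM, and 171 and 149 CPM with phenylephrine, in fibroblasts. Its libraries separated by medium in both cell types, downward in cardiomyocytes and upward in fibroblasts. The difference was log2 -0.84 ± 0.11 (edgeR adjusted p = 0.00338), with the call kept without any 1 library. Bst2 is given above, and Ifi44 (-0.92 ± 0.22, 0.0457) lost its call without C-SFM-1, C-SFM-3, C-PE-2, F-SFM-1, F-SFM-2, F-PE-1 or F-PE-2 (adjusted p = 0.0808 to 0.224) and with limma-voom (0.0853). The count was 1 without F-SFM-1 or F-PE-1 and 6 without C-SFM-2. It was 9 with both libraries that stand apart left out (2657 of 13786 over all genes) and 6 by DESeq2 (790 of 13869). Leukocyte markers were called down in the same cultures for 6 of 20 (1.84% of all genes); their part was not tested.

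Growth factors and their binding proteins had 0 of 41 higher and 4 lower, against 1.63% and 1.62% of all genes (median log2 -0.15 against 0.004). Igfbp3, which binds insulin-like growth factors, was at 29.3, 18.9 and 26.2 CPM and 17.9, 26.5 and 20.9 CPM in cardiomyocytes, with overlap, and rose from 71.7 and 71.9 to 191 and 199 CPM in fibroblasts (difference log2 -1.63 ± 0.25, edgeR adjusted p = 0.0122). For Igfbp3 the call was lost without F-SFM-1, F-PE-1 or F-PE-2 (adjusted p = 0.0657 to 0.0772). The BMP antagonist Grem1 (-1.14 ± 0.19, 0.0121) and hepatocyte growth factor, Hgf (-1.40 ± 0.33, 0.0447), also rose in fibroblasts alone, whereas Figf, a VEGF family ligand (-0.65 ± 0.15, 0.0389), fell in cardiomyocytes alone. Grem1 lost its call without F-SFM-1, F-PE-1 or F-PE-2 (adjusted p = 0.0508 to 0.0741), Hgf without C-SFM-1, C-SFM-3, C-PE-2, C-PE-3, F-SFM-1, F-PE-1 or F-PE-2 (adjusted p = 0.0546 to 0.2) and Figf without C-SFM-3, C-PE-2, C-PE-3, F-SFM-1, F-SFM-2, F-PE-1 or F-PE-2 (adjusted p = 0.0676 to 0.164) and with limma-voom (0.0598). The count was 0 without F-SFM-1, F-PE-1 or F-PE-2 and 2 without C-SFM-3, C-PE-2 or C-PE-3. With both libraries that stand apart left out it was 7 (2657 of 13786 over all genes).

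The signalling lists nearest the receptor held 1 to 3 calls each with all 10 libraries. Over all genes 1.63% were called higher and 1.62% lower. Of 21 Gq, phospholipase C and protein kinase C genes, 2 were lower: the calcium release channel Itpr3 (-0.61 ± 0.11, 0.0154), lost without F-SFM-1, F-PE-1 or F-PE-2 (adjusted p = 0.0838 to 0.0925), and the G protein subunit Gna12 (-0.49 ± 0.10, 0.0251). Gna12 lost this call without C-SFM-1, C-SFM-3, C-PE-2, C-PE-3, F-SFM-1, F-PE-1 or F-PE-2 (adjusted p = 0.0634 to 0.132). Of 23 ERK feedback genes 2 were higher, Spry4 and Dusp8, and of 8 Mef2 factors and class II deacetylases 2, Mef2c and Hdac5 (0.53 ± 0.12, 0.0368). The call for Hdac5 was lost without C-SFM-1, C-SFM-3, C-PE-2, C-PE-3, F-SFM-1, F-SFM-2, F-PE-1 or F-PE-2 (adjusted p = 0.0636 to 0.177) and with scaling by library size alone (0.0885). Of 16 RGS regulators 1 was higher, Rgs6, and of 7 cyclin-dependent kinase inhibitors 1 was lower, Cdkn1c. Of 17 synaptic vesicle genes 1 was higher, Snap91. Of 19 AP-1 and Egr genes 2 were higher, Ier3 (0.57 ± 0.0773, 0.0044), with its call kept without any 1 library, and Egr2 (1.16 ± 0.28, 0.0477). For Egr2 the call was lost without C-SFM-1, C-SFM-3, C-PE-2, C-PE-3, F-SFM-1, F-SFM-2, F-PE-1 or F-PE-2 (adjusted p = 0.0767 to 0.19) and with a filter at 10 CPM (0.0566). Of 23 Dact and Wnt modulator genes 2 were lower, Dact2 and the R-spondin Rspo1 (-1.33 ± 0.29, 0.0327). Rspo1 lost this call without C-SFM-1, C-SFM-3, C-PE-2, C-PE-3, F-SFM-2, F-PE-1 or F-PE-2 (adjusted p = 0.0632 to 0.141). Of 15 MEF2 target and striated muscle genes, 2 were higher, the small heat shock protein Hspb7 (1.08 ± 0.19, 0.0122) and Cap2 (0.56 ± 0.11, 0.017), and 1 lower, Nr4a1. Hspb7 lost its call without F-PE-1 or F-PE-2 (adjusted p = 0.0541 to 0.0993) and Cap2 without F-SFM-1, F-PE-1 or F-PE-2 (adjusted p = 0.0644 to 0.131) and with limma-voom (0.0586). These counts depended on the libraries. Without both that stand apart, 7 of the Gq genes, 4 of ERK feedback, 2 of Mef2 factors and deacetylases, 3 of RGS regulators, 3 kinase inhibitors and 2 adrenergic receptors were called. In the same way 4 synaptic vesicle, 6 AP-1 and Egr, 6 Dact and Wnt and 5 MEF2 target genes were called. Over all genes 2657 of 13786 were called in that setting. With 1 library left out, the Gq count was 0 without F-SFM-1, F-PE-1 or F-PE-2, 1 without C-SFM-1, C-SFM-3, C-PE-2 or C-PE-3 and 4 without C-SFM-2, and the AP-1 and Egr count 1 without C-SFM-1, C-SFM-3, C-PE-2, C-PE-3, F-SFM-1, F-SFM-2, F-PE-1 or F-PE-2 and 4 without C-SFM-2. The Dact and Wnt count was 1 without C-SFM-1, C-SFM-3, C-PE-2, C-PE-3, F-PE-1 or F-PE-2, 4 without C-SFM-2 and 5 without C-PE-1, and the MEF2 target count 0 without F-PE-2 and 1 without F-PE-1. The ranges of the others were 1 to 3 for ERK feedback, 1 to 2 for Mef2 factors and deacetylases, 0 to 1 for RGS regulators, 1 to 2 for kinase inhibitors, 1 to 3 for synaptic vesicle genes and 0 to 2 for adrenergic receptors.

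Structural and metabolic lists held 0 to 2 calls each with all 10 libraries, and more without C-SFM-2 and C-PE-1. Over all genes 1.63% were called higher and 1.62% lower, 3.25% in either direction. Near that share were the hypertrophy program (3.13%), calcium handling (3.7%), fatty acid oxidation (3.7%), inflammation (4%) and actin and SRF targets (4.17%). Of 24 actin and SRF targets 1 was higher, vinculin (Vcl, 0.89 ± 0.16, 0.0136), lost without F-SFM-1, F-PE-1 or F-PE-2 (adjusted p = 0.0636 to 0.0909), although 23 of 24 had a positive fitted difference with a median of log2 0.38. The hypertrophy program had 1 of 32, Ankrd1. Of 31 matrix genes 1 was higher, fibronectin (Fn1, 0.68 ± 0.16, 0.0421), lost without C-SFM-1, C-SFM-3, C-PE-2, C-PE-3, F-SFM-1, F-SFM-2, F-PE-1 or F-PE-2 (adjusted p = 0.0522 to 0.173), and 1 lower, decorin (Dcn, -2.69 ± 0.57, 0.0485), lost without C-SFM-1, C-SFM-3, C-PE-1, C-PE-2, C-PE-3, F-SFM-1, F-SFM-2, F-PE-1 or F-PE-2 (adjusted p = 0.0538 to 0.214) and with limma-voom (0.0715), no filter (0.111) or scaling by library size alone (0.054); they were also the 2 of 14 fibroblast markers called. Glycolysis had Eno3 higher and Pfkm lower of 24 (-0.49 ± 0.12, 0.0472). The call for Pfkm was lost without C-SFM-1, C-SFM-3, C-PE-2, F-SFM-1, F-PE-1 or F-PE-2 (adjusted p = 0.1 to 0.238) and with limma-voom (0.0541). Prostaglandin genes had 2 of 19 lower, Ptges and Slco2a1. Calcium handling had 1 of 27 lower, the T-type channel Cacna1g (-1.08 ± 0.18, 0.0102), lost without F-SFM-1 or F-PE-2 (adjusted p = 0.0513 to 0.0862), fatty acid oxidation 1 of 27 lower, the lipid droplet protein Plin2 (-0.74 ± 0.11, 0.00728), lost without F-PE-1 (adjusted p = 0.054), and inflammation 1 of 25 lower, the pentraxin Ptx3 (-0.61 ± 0.14, 0.0464). For Ptx3 the call was lost without C-SFM-1, C-SFM-3, C-PE-2, C-PE-3, F-SFM-2, F-PE-1 or F-PE-2 (adjusted p = 0.0791 to 0.208) and with relative log expression factors (0.0504) or limma-voom (0.0516). Without both libraries that stand apart, 19 matrix genes, 15 actin and SRF targets, 14 glycolysis genes and 7 genes of the hypertrophy program were called. So were 7 prostaglandin, 7 inflammation, 6 calcium handling and 5 fatty acid oxidation genes and 6 fibroblast markers. Over all genes 2657 of 13786 were called in that setting. With 1 library left out, the matrix count was 0 without C-SFM-1, C-SFM-3, C-PE-2, F-SFM-1, F-PE-1 or F-PE-2, 1 without C-PE-3 or F-SFM-2, 4 without C-PE-1 and 10 without C-SFM-2, and the actin and SRF count 0 without F-SFM-1, F-PE-1 or F-PE-2 and 12 without C-SFM-2. The hypertrophy count was 0 without C-SFM-1, C-SFM-3, C-PE-2, C-PE-3, F-SFM-1, F-PE-1 or F-PE-2 and 6 without C-SFM-2. The ranges of the others were 0 to 2 for glycolysis, 1 to 4 for prostaglandin genes, 0 to 3 for inflammation, 0 to 4 for calcium handling, 0 to 2 for fatty acid oxidation and 0 to 3 for fibroblast markers.

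The 14 lists with 0 genes called by edgeR held 244 entries tested, 50 of them at an unadjusted p under 0.05, 17 called by DESeq2 and 1 by limma-voom. Over all 13869 genes these counts were 2644, 790 and 394. Without both libraries that stand apart 73 of the 244 were called, among them 18 cell cycle, 10 sarcomere, 10 smooth muscle and pericyte and 8 leukocyte genes. Over all genes 2657 of 13786 were called in that setting. The 14 lists were the sarcomere (30 tested), the cell cycle (33), oxidative phosphorylation (27), the circadian clock (20), ATF4 targets with amino acid synthesis (21), the unfolded protein response (20), metallothioneins and zinc transporters (11), and markers of leukocytes (20), endothelial cells (12), smooth muscle and pericytes (15), epicardial cells (13), Schwann and neural cells (8), erythroid cells (4) and cardiomyocytes (10).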

How the data were processed

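RNA was sequenced, per the labels' protocols, as TruSeq libraries, with 10 libraries on 1 lane. Per the submitters' processing notes, cutadapt, TopHat2 2.0.10, HTSeq 0.6.1p1, DESeq2 1.6.3 and build Rnor_6.0 were used; the annotation release and strand setting are not given in the sources used here. The deposited values are whole-number read counts per gene symbol, not normalized. A further 10 per-library columns and the authors' own comparisons were not used. Of 28522 symbols, 19808 had a count.

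Counts were filtered (filterByExpr, minimum count 10, minimum total 15), scaled with TMM factors and fitted with edgeR 4.0.16 (robust quasi-likelihood, R 4.3.3), with 1 coefficient per group over all 10 libraries and Benjamini-Hochberg adjustment over 13869 genes within each contrast. Log2 values are fitted, and ± is a standard error worked back from each fitted value and its quasi-likelihood F statistic. CPM values are scaled per library and carry no gene length. The code was tested on simulated data.

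Named genes were 5 markers, then by class, among genes with at least 10 CPM, no overlap between media and no provisional name, up to 6 of each opposite and 4 of each one-sided class by largest difference, and in each list described the 3 members with the lowest p. The other opposite, same-direction and list genes were named after their values were seen. Members and the 39 gene lists (871 entries, 789 tested) were chosen with earlier results of these data known; 1 further gene of the cholesterol list is not reported here. Alternatives were DESeq2 1.42.0, limma-voom (3.58.1), relative log expression factors, no filter, a filter at 10 CPM, a log2 difference of at least 1, each cell type fitted alone, a replicate block, library size alone, and leaving out libraries. Reads can be shared where genes overlap in RefSeq (GRCr8): Eno3 with Spag7, Idi1 with Wdr37, Nptn with Rec114, Pfkm with Senp1, Ptx3 with Veph1 and Tead2 with Cd37.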

Additional observations from a re-analysis of the deposited data

Results flagged for a closer look

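The genes below are listed because their response to phenylephrine differed between cardiomyocytes and fibroblasts by the test of the difference itself (edgeR, adjusted p below 0.05). Single outlying samples were looked for only in groups of 4 or more, of which there were none; the libraries that stand apart are given with the depths above. Values are log2 differences, cardiomyocyte response minus fibroblast response. With opposite responses, the higher in cardiomyocytes were Snap91 (1.90), Il1rap (1.49), Nid2 (1.43), Mef2c (1.36), Prrg4 (1.30), Ddah1 (1.23) and Spry4 (1.17). Those lower in cardiomyocytes were Dact2 (-4.07), Ablim1 (-2.08), Ptges (-1.85), Mdk (-1.79), Gpm6a (-1.31) and Bst2 (-1.18).

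Called up in the cardiomyocyte response and not called in that of fibroblasts were Atcay (1.95), Mfsd2a (1.41), Eno3 (1.39) and Itga7 (1.37). Called down in cardiomyocytes and not called in fibroblasts were Gpd1 (-2.94), Adra1b (-2.49), Hk3 (-2.00) and Ntn1 (-1.76). The fitted fibroblast responses of Gpd1 (log2 2.39 ± 0.59) and Adra1b (1.70 ± 0.50) did not pass the test but were larger in size than those of cardiomyocytes (-0.55 ± 0.0923 and -0.79 ± 0.19). Called up in fibroblasts and not called in cardiomyocytes were Cdkn1c (-3.35), Smoc2 (-2.48), Nppc (-2.43) and Pi16 (-2.40). Called down in fibroblasts and not called in cardiomyocytes were Fam174b (1.92), Rgs6 (1.604), Sorbs2 (1.58) and Inhba (1.40).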

How the results depend on the processing

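The number of genes called depended on the libraries, while the direction of the named genes did not. Of 96 genes, 0 changed direction under the 19 alternatives that test the difference again, 19 kept their side of the threshold under every one and 76 lost a call under at least 1. Of 1820 pairs of gene and alternative, 1425 gave the same verdict, 393 lost a call and 2 gained one. Relative log expression factors (448 called), limma-voom (394), no filter (521) and a filter at 10 CPM (436) left the count of 451 within 1.5 times.

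Values follow in 1 order: the difference, then its opposite, cardiomyocytes alone, fibroblasts alone, same direction and neither classes, then the cardiomyocyte and fibroblast responses. DESeq2 gave 790 called, with 66, 211, 355 and 148 opposite, cardiomyocytes alone, fibroblasts alone and neither, and 950 in cardiomyocytes. A log2 difference of at least 1 left 157, with 18, 29, 83, 3 and 24. Fitting each cell type alone leaves the difference itself as it is by construction, and gave 5 opposite, 23 cardiomyocytes alone and 4 same direction, with responses of 91 and 1306. Without both libraries that stand apart there were 2657, with 372, 1224, 690, 81 and 290, and responses of 3486 and 2056. With 1 library left out the ranges were 71 to 1290, then 1 to 157, 6 to 624, 42 to 330, 2 to 22 and 13 to 172, then 32 to 2371 and 112 to 919. The causes were not tested. Library size alone and leaving out both libraries that stand apart were chosen after seeing the data.

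With the replicate number as a block, 198 were called, with 6, 42, 101, 2 and 47, and responses of 195 and 225. Its losses were left out of the gene-by-gene lists of lost calls. Lost under it were Gpd1, Adra1b, Hk3, Ntn1, Nppc, Ankrd1, Cap2, Cnksr3, Col4a3, Dcn, Figf, Fn1, Gna12, Hdac5, Hgf and Hspb7. So were Ifi44, Igfbp3, Itpr3, Lats2, Mgat3, Msmo1, Nptn, Nr4a3, Nsdhl, Pfkm, Ptx3, Rspo1, Skil, Tead2 and Tgfbr2. Their edgeR adjusted p ran from 0.0528 (Tgfbr2) to 0.162 (Fn1). The numbers were not treated as pairs. Deviations of same-numbered libraries from their group means had r = -0.224, -0.101 and 0.0198 in cardiomyocytes and -0.0413 in fibroblasts, across genes. Other cardiomyocyte pairs ran from -0.142 (C-SFM-2 with C-PE-3) to 0.177 (C-SFM-2 with C-PE-1) and 0.178 (C-SFM-1 with C-PE-3). Deviations within a group cancel, which ties these values to each other and in fibroblasts gives all the same size. The check thus cannot decide whether the numbers mark pairs. With 2 fibroblast libraries per medium, leaving out 1 leaves a lone library assumed to vary like the other groups. Depth limits genes near the floor, such as Dact2 and Gpd1 in fibroblasts.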
